A study of Homo sapiens with 4 samples.

Results

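The 10 genes described here encode receptors, receptor substrates, a ligand and binding proteins of the insulin and insulin-like growth factor (IGF) system. They are the rows of the deposited expression table with the symbols IGF2, INSR, IGF1R, IGF2R, IRS1, IRS2, IRS4, IGFBP2, IGFBP3 and IGFBP4, 10 of 38972 rows in all. RNA was sequenced from HEK293T, an established human embryonic kidney line, in 2 libraries labelled oeRNH1, described as overexpressing RNase H1, and 2 labelled oeFlag, described as overexpressing the Flag epitope tag, which serve as the control. RNase H1 cuts the RNA strand of RNA-DNA hybrids, and the series it belongs to maps R-loops, in which RNA pairs with one strand of the DNA. All 4 libraries come from the same line. The labels do not say how the proteins were overexpressed, for how long, or whether replicates were separate cultures, so a p-value here reflects the spread of these libraries alone, and that spread may be technical.

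Values are TPM, the abundance of each transcript in a library after division by its length and scaling to a fixed total. The 4 columns summed to between 998901 and 998955 TPM, no pair of libraries was identical in more than 0.422% of the tested genes, and TPM keeps no sequencing depth, so no counting interval was computed. RNASEH1, the gene for RNase H1, was not higher under its label: its level was 29.9 and 29.7 TPM in the libraries labelled oeRNH1, against 32.1 and 32.8 TPM in those labelled oeFlag. RNH1, the ribonuclease inhibitor gene whose symbol resembles the label, had 51.5 and 58.3 TPM in the libraries labelled oeRNH1, against 56.9 and 54.6 TPM in those labelled oeFlag, groups that overlap. The overexpression is thus not seen in these values. Mean RNASEH1 was 1.09 times as high under oeFlag as under oeRNH1 and was not called (limma adjusted p = 0.260), so neither group had a clear excess. Whether the table counts a transcript made from a vector is not given in the sources used here. Why the overexpression is not seen, and whether the labels are right, was not tested. For this reason the groups keep the names of their labels, and each difference given is between labels. Among markers of the line, vimentin (VIM), the keratins KRT8 and KRT18 and the neurofilaments NEFL and NEFM were all present, and PAX2, a kidney lineage factor, was low at 1.29 to 1.86 TPM. The 7 markers summed to 1215 and 1232 TPM in the libraries labelled oeRNH1 and to 1113 and 1130 TPM in those labelled oeFlag, and NEFL and NEFM fell while VIM, KRT8 and KRT18 rose (limma adjusted p between 0.0145 and 0.0416). Markers of adipocytes, muscle and hepatocytes, the classic insulin targets, summed to 2.87 to 3.97 TPM in the libraries labelled oeRNH1 and 2.17 to 2.21 TPM in those labelled oeFlag, with ADIPOQ and TTR listed at 0 throughout. Of these, ALB (albumin) had 1.51 and 2.05 TPM in the libraries labelled oeRNH1, against 0.23 and 0.62 TPM in those labelled oeFlag, and was not called (limma adjusted p = 0.0572). The part of these marker differences in the results that follow was not tested. Leukocyte and endothelial markers summed to at most 0.34 TPM.

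Insulin and the IGFs act through the receptor tyrosine kinases INSR and IGF1R. The active receptors phosphorylate insulin receptor substrates (IRS proteins), docking proteins that recruit PI3K and GRB2 and so start the AKT, mTOR and ERK cascades. IGF2R, the cation-independent mannose 6-phosphate receptor, removes IGF2 from the cell surface and has no kinase. The IGF-binding proteins are secreted and hold IGFs outside the cell, which limits or prolongs their access to IGF1R. IRS4 was first isolated from HEK293 cells and is abundant in few adult cell types.

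Of the 10 genes, IRS4 and IGFBP3 stood apart between the groups and the other 8 lay close together. IRS4 had 2.11 times as much TPM on average in the libraries labelled oeFlag as in those labelled oeRNH1, and IGFBP3 had 9.47 times as much in those labelled oeRNH1. The 10 genes were picked with their levels in these libraries already known, so their differences are given as descriptions, without a test. In a limma fit of log2(TPM + 1) over the 15651 genes whose mean reached 1 TPM, 2 of the 10 (IGFBP3 higher, IRS4 lower) had an adjusted p under 0.05, which restates the differences that chose them and is no test of these genes. In that fit 11.8% of all tested genes were called, 6.30% higher and 5.54% lower. With no filter on low values, with no variance trend, or with oeRNH1 replicate 1, oeRNH1 replicate 2 or oeFlag replicate 1 left out, neither IRS4 nor IGFBP3 was called, and with oeFlag replicate 2 left out IRS4 was and IGFBP3 was not. The fits without 1 library called between 0 and 15 genes in all, and their log2 fold changes ran from -1.11 to -1.02 for IRS4 and from 1.91 to 2.20 for IGFBP3. The groups did not overlap in 7 of the 10 genes, 3 higher and 4 lower, beside 60.7% of all tested genes (31.3% higher and 29.4% lower). Over the 10 genes the log2 fold changes had a median of -0.03, and over all tested genes of 0.00. All 10 passed the filter, IGFBP3 only through its level in the libraries labelled oeRNH1. TPM are shares of a culture's RNA, so fewer cells expressing a gene and less of its RNA per cell cannot be told apart.

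**Figure D1:**
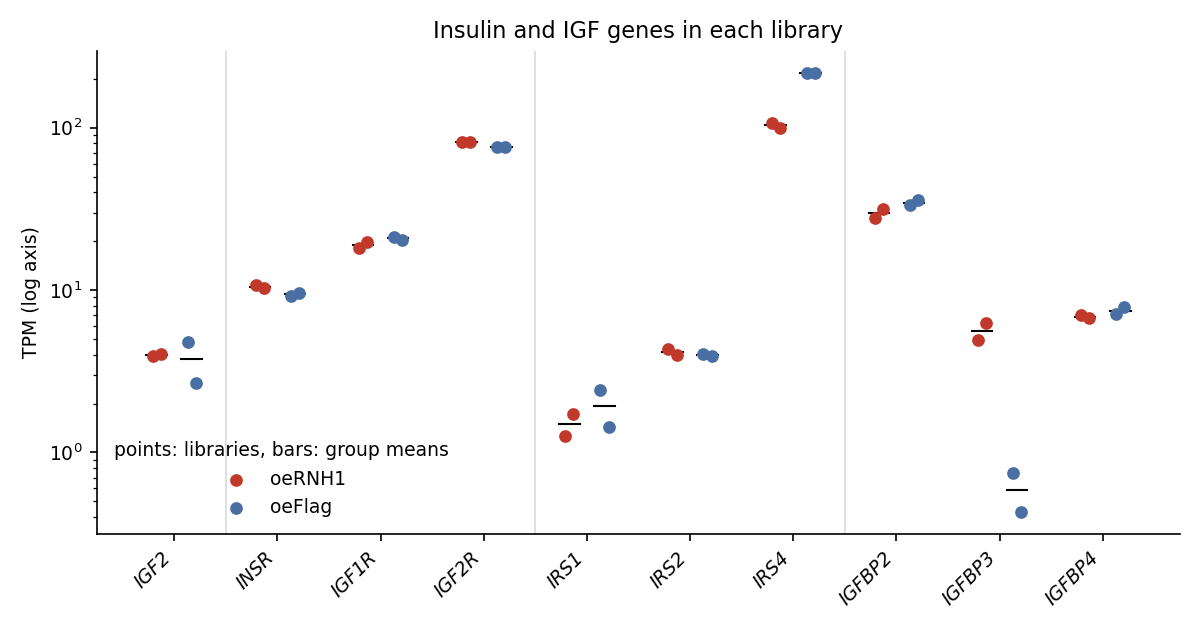
TPM (log axis) of the 10 insulin and IGF genes in each library, grouped by ligand, receptors, substrates and binding proteins, with oeRNH1 left of oeFlag for each gene and bars at the group means. IRS4 sits at 107 and 99.9 TPM in the libraries labelled oeRNH1 and at 217 and 218 TPM in those labelled oeFlag, IGFBP3 shows the opposite order, and the other genes lie close together.

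IGF2, the only ligand among the 10 and an imprinted fetal growth factor, was low. It had 3.93 and 4.06 TPM in the libraries labelled oeRNH1, against 4.81 and 2.69 TPM in those labelled oeFlag. The groups overlapped, with both oeRNH1 values between the 2 oeFlag values (log2 fold change 0.11 ± 0.23, SE). The value is uncertain, since IGF2 (chromosome 11, 2129112 to 2149603, on the minus strand of GRCh38 in GENCODE release 29) shares exonic bases with INS-IGF2, with the antisense gene IGF2-AS and with a second model, ENSG00000284779. The table listed INS-IGF2 and ENSG00000284779 at 0 in all 4 libraries. IGF2-AS had 0.61 and 0.57 TPM in the libraries labelled oeRNH1, against 0.19 and 0 TPM in those labelled oeFlag, below the filter. Insulin (INS) and IGF1 were listed at 0 in every library, so IGF2 was the only one of the 3 ligand genes with a value above 0.

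The 3 receptors differed little between the groups. INSR, the insulin receptor (chromosome 19, 7112255 to 7294034), had 10.8 and 10.2 TPM in the libraries labelled oeRNH1, against 9.21 and 9.60 TPM in those labelled oeFlag (log2 0.15 ± 0.10, SE). IGF1R, the receptor for IGF1 and IGF2 (chromosome 15, 98648539 to 98964530), had 18.1 and 19.7 TPM in the libraries labelled oeRNH1, against 21.3 and 20.4 TPM in those labelled oeFlag (log2 -0.14 ± 0.08). Both pairs of groups stood clear of each other, in opposite directions and by small amounts. The summed INSR and IGF1R level was 28.9 and 29.9 TPM in the libraries labelled oeRNH1 and 30.5 and 30.0 TPM in those labelled oeFlag. The ratio of IGF1R to INSR was 1.68 and 1.93 in the libraries labelled oeRNH1 and 2.31 and 2.13 in those labelled oeFlag, so IGF1R was the more abundant transcript per length in all 4. IGF2R (chromosome 6, 159969099 to 160113507) had 81.8 and 81.1 TPM in the libraries labelled oeRNH1, against 75.7 and 76.0 TPM in those labelled oeFlag (log2 0.10 ± 0.05). Its replicates lay within 1 TPM of each other and the groups did not overlap, but the difference in mean level was only 1.07-fold. INSRR, the insulin receptor-related receptor, did not pass the filter, at 0.05 to 0.11 TPM in the 4 libraries.

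Among the substrates, IRS4 was the main transcript in every library. IRS4 (chromosome X, 108732482 to 108736409, on the minus strand) is a gene of 1 exon of 3928 bases. It had 107 and 99.9 TPM in the libraries labelled oeRNH1 (103 ± 4.74, SD, n = 2), against 217 and 218 TPM in those labelled oeFlag (217 ± 0.721, SD, n = 2). The lower oeFlag value was more than 100 TPM above the higher oeRNH1 value. The log2 fold change was -1.07 ± 0.05 (SE), the decrease of rank 49 among all 15651 tested genes, and by TPM lost its rank was also 49. By mean level IRS4 ranked 1526 of the 15651 tested genes in the libraries labelled oeRNH1 and 608 in those labelled oeFlag. Among the 1588 tested genes whose mean reached 100 TPM, it had the most negative log2 fold change, rank 1. That cutoff was used only for this rank, with the values of IRS4 already known.

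IRS1 and IRS2, the substrates that carry insulin action in muscle and liver, were low in these cells. IRS1 (chromosome 2, 226731317 to 226799759) had 1.27 and 1.72 TPM in the libraries labelled oeRNH1, against 2.44 and 1.44 TPM in those labelled oeFlag. Its groups overlapped (log2 -0.22 ± 0.24, SE). IRS2 (chromosome 13, 109752698 to 109786568) had 4.35 and 4.0 TPM in the libraries labelled oeRNH1, against 4.04 and 3.93 TPM in those labelled oeFlag, and overlapped as well (log2 0.05 ± 0.13). The sum of IRS1 and IRS2 was 5.62 and 5.72 TPM in the libraries labelled oeRNH1 and 6.48 and 5.37 TPM in those labelled oeFlag. IRS4 made up 94.99% and 94.6% of the summed IRS transcripts in the libraries labelled oeRNH1 and 97.1% and 97.6% in those labelled oeFlag. The summed level of the 3 substrates was 112 and 106 TPM in the libraries labelled oeRNH1 and 223 and 223 TPM in those labelled oeFlag. The difference in total IRS transcript was thus almost all IRS4, which had 24.5 and 24.96 times the IRS2 level in the libraries labelled oeRNH1 and 53.7 and 55.5 times in those labelled oeFlag.

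**Figure D2:**
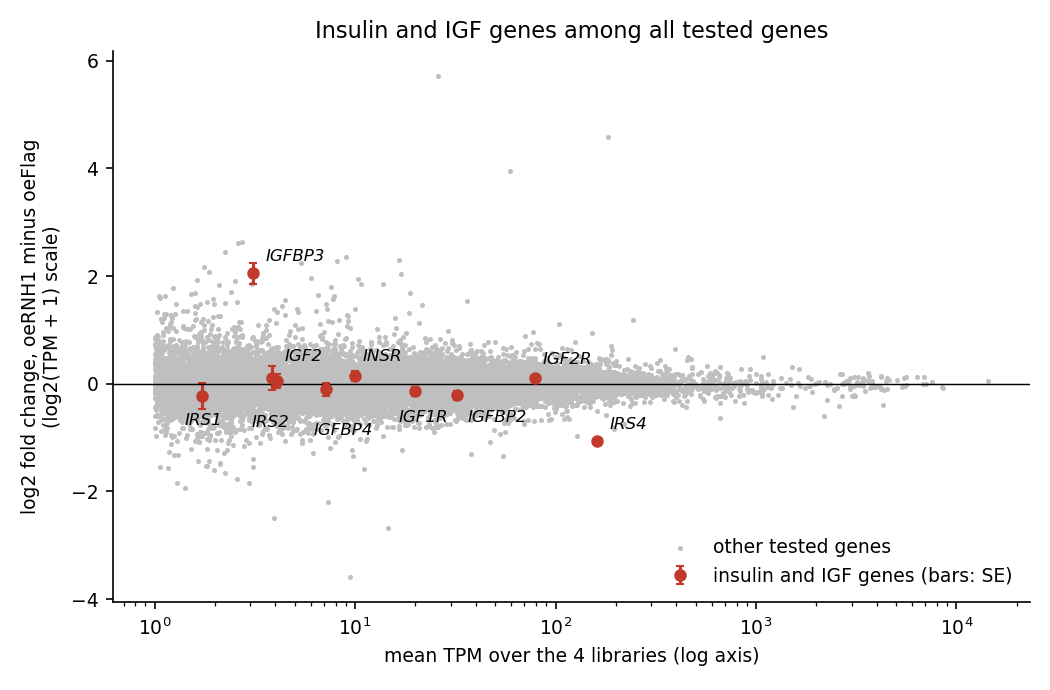
Log2 fold change (oeRNH1 minus oeFlag, on the log2(TPM + 1) scale) against mean TPM over the 4 libraries (log axis) for all 15651 tested genes in grey and the 10 insulin and IGF genes in red, with bars for the SE. IRS4 lies below the cloud of genes of similar level at -1.07, IGFBP3 above its own at 2.05, and the other 8 within 0.22 of 0.

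IGFBP3, the main IGF carrier in human blood and a gene induced by p53 and TGF-beta in other cells, was the lowest of the 10 genes in the libraries labelled oeFlag. It had 4.95 and 6.23 TPM in the libraries labelled oeRNH1 (5.59 ± 0.905, SD, n = 2), against 0.75 and 0.43 TPM in those labelled oeFlag (0.59 ± 0.226, SD, n = 2). Every oeRNH1 value was far above every oeFlag value, though replicates within a group also differed. Its log2 fold change of 2.05 ± 0.20 (SE) was the increase of rank 13 among all tested genes, a rank read only with 1 as the added constant. The size of the change depends on that constant, at 3.07 with a pseudocount of 0.1 and 0.92 with one of 5, because the oeFlag level was under 1 TPM. IGFBP3 lies on chromosome 7, 45912245 to 45921874, on the minus strand.

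The other binding proteins moved less. IGFBP2, a binding protein common in fetal tissue and tumours (chromosome 2, 216632828 to 216664436), had 28.0 and 31.7 TPM in the libraries labelled oeRNH1, against 33.4 and 35.8 TPM in those labelled oeFlag (log2 -0.21 ± 0.08, SE). The groups did not overlap, with a gap smaller than the difference between the oeRNH1 replicates. IGFBP4, which PAPP-A cleaves to release IGFs (chromosome 17, 40443461 to 40457731), had 6.99 and 6.70 TPM in the libraries labelled oeRNH1, against 7.07 and 7.82 TPM in those labelled oeFlag (log2 -0.11 ± 0.11). IGFBP2 was the most abundant of IGFBP1 to IGFBP7 in every library. The 7 transcripts together summed to 48.3 and 51.2 TPM in the libraries labelled oeRNH1 and to 49.7 and 51.9 TPM in those labelled oeFlag, ranges that overlap. Within that sum IGFBP3 took 10.3% and 12.2% in the libraries labelled oeRNH1 and 1.51% and 0.829% in those labelled oeFlag. IGFBP2 took 58.0% and 62.0% in the libraries labelled oeRNH1 and 67.2% and 68.9% in those labelled oeFlag.

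The order of the levels, in TPM per gene, was the same in both groups for the first 6 genes. From high to low these were IRS4, IGF2R, IGFBP2, IGF1R, INSR and IGFBP4, and in each group no 2 neighbours of that order overlapped. In the libraries labelled oeRNH1, IGFBP3 came next, then IRS2 and IGF2, which overlapped, then IRS1. In those labelled oeFlag, IRS2 and IGF2 overlapped again and were followed by IRS1 and, last, IGFBP3.

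The stretches just before the RefSeq starts of the genes that stood furthest apart are shown as upstream sequence, which is not itself transcribed from those starts. They are given on the minus strand of GRCh38.p14 from RefSeq, 5′ to 3′, and end 2 bases before the RefSeq start of IGFBP3 (chr7:45921275-45921522, 248 bases, between exons of GENCODE models that start further upstream) and just before the more upstream of the RefSeq starts of IRS4 (chrX:108736564-108736813, 250 bases). Capitals mark a TATA box (TATANA) or a GC box (GGGCGG, bound by SP1) on either strand.
IGFBP3: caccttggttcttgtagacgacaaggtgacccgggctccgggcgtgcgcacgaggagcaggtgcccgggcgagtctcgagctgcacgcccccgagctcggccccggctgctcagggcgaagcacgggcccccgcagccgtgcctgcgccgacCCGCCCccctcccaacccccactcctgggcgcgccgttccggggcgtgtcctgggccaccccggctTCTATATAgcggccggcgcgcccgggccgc
IRS4: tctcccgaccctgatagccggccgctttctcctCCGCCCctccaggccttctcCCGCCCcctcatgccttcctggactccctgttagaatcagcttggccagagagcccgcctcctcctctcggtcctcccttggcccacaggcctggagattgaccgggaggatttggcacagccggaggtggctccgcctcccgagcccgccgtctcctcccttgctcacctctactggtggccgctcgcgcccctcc
IGFBP3 held 2 overlapping TATA matches that begin 32 and 30 bases before the start and 1 GC box 98 bases before it, and IRS4 held 2 GC boxes and no TATA match. The GC content of the printed stretches was 75.8% for IGFBP3 and 68.0% for IRS4.

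The RefSeq table gave windows of 300 bases (250 before a start and 50 after it) for 9 of the 10 genes, 12 windows in all. Their GC content ran from 55.3% to 79.7%, beside a median of 58.7% over all 35116 windows. A GC box occurred in at least 1 window of all 9 genes with a window, and 45% of all windows held one. For this and the other motifs, genes are counted by any of their windows, whereas the shares are per window, so they are not directly comparable. A TATA match occurred in IGFBP3 and IGFBP4 (19% of all windows). An E-box (CACGTG), which MYC and related factors bind, was found for IRS1, IGF2R and, at the more downstream start, IRS4 (7.26% of all windows). AP-1 sites (TGANTCA, 7.71% of all windows), cAMP response elements (TGACGTCA, 1.85%) and FOXO sites (GTAAACA, 3.42%) were in no window of these genes, which says only that these letters are not there. All motifs were searched on both strands.

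The genes next to IRS4 on the X chromosome were read for comparison. Within 1 Mb, 14 protein-coding or antisense neighbours had a row and 9 were tested, of which 1 rose, 2 fell and 6 were not called, beside 11.8% of all tested genes called. COL4A5, a collagen IV chain whose gene ends 34.9 kb from IRS4, had 12.4 and 11.3 TPM in the libraries labelled oeRNH1, against 19.5 and 19.1 TPM in those labelled oeFlag. It fell (log2 -0.66 ± 0.09, SE, limma adjusted p = 0.0147). COL4A6, the partner chain that shares its promoter region, had a log2 fold change of -0.52 ± 0.21 and did not pass (adjusted p = 0.151). TSC22D3, a glucocorticoid-induced leucine zipper protein 955 kb away, fell by 0.23 ± 0.05 (adjusted p = 0.0354), and ATG4A, an autophagy protease 578 kb away, rose by 0.40 ± 0.09 (adjusted p = 0.0376). MID2, PSMD10, NXT2 and ACSL4 had log2 fold changes from -0.10 to 0.23 and were not called. NCBP2L, TEX13B, VSIG1, GUCY2F and KCNE5 were below the filter. COL4A5, TSC22D3 and ATG4A were not called when any 1 of the 4 libraries was left out (adjusted p between 0.0965 and 0.181), with no filter or with no variance trend.

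IRS4-AS1 is annotated on the opposite strand across the 5′ end of IRS4 and shares 356 exonic bases with it. It had 7.34 and 5.19 TPM in the libraries labelled oeRNH1, against 8.54 and 9.0 TPM in those labelled oeFlag (log2 -0.44 ± 0.16, SE, limma adjusted p = 0.125). Whether reads were assigned by strand is not given in the sources used here, so reads of the overlap may be shared and the value of IRS4-AS1 is uncertain.

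**Figure D3:**
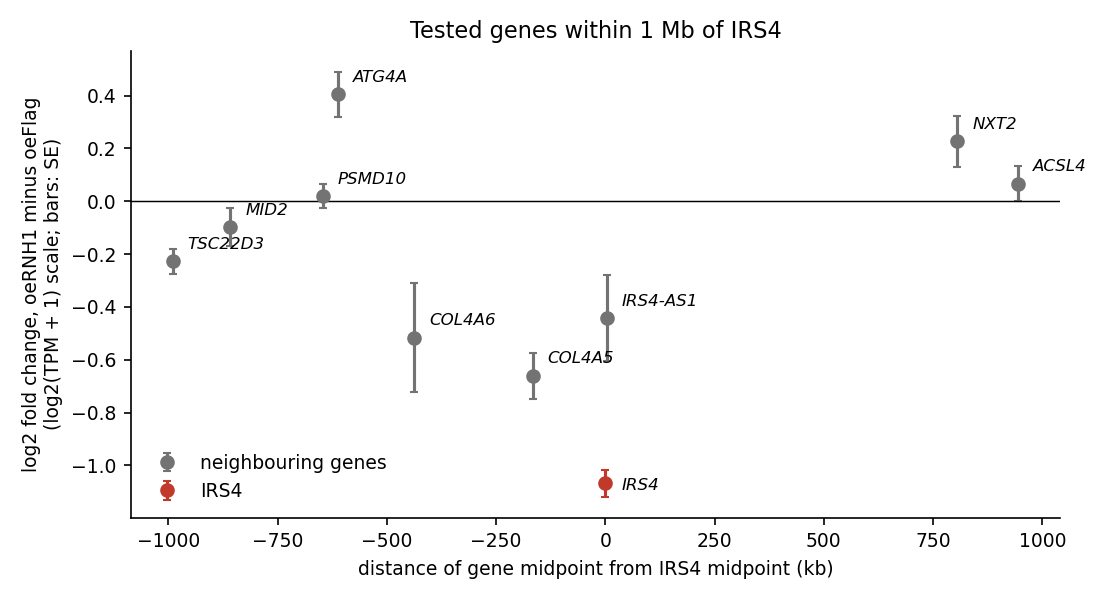
Log2 fold change (oeRNH1 minus oeFlag, bars for the SE) of IRS4 and the 9 tested genes within 1 Mb of it, against the distance of each gene's midpoint from that of IRS4 in kb. IRS4 is the lowest point at -1.07, COL4A5 follows at -0.66, and ATG4A is highest at 0.40.

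Genes with the library pattern most like that of IRS4 were found by the Euclidean distance of their 4 centred log2(TPM + 1) values, over 11244 other genes whose mean reached 5 TPM. The nearest 5 were ENSG00000287086 (distance 0.12), MLXIPL, a glucose-responsive transcription factor (0.12), COMTD1, a protein with a catechol O-methyltransferase domain (0.14), ABCA2, a lipid transporter (0.16), and ADAMTS13, the protease of von Willebrand factor (0.17). Their mean levels were 4.59 to 9.88 TPM in the libraries labelled oeRNH1 and 10.03 to 24.4 TPM in those labelled oeFlag, all below IRS4. With 4 libraries in 2 groups such a likeness is little more than a similar fold change.

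The rest of the pathway was read from 11 lists of 131 genes, of which 117 were tested. The lists were chosen with earlier results of these data known. The shares and adjusted p values given for them, here and list by list below, are therefore descriptions and no independent test. In the libraries labelled oeRNH1, 6 rose (5.13% of those tested, beside 6.30% of all tested genes), 13 fell (11.1%, beside 5.54%) and 98 were not called. Over the 117 genes the median log2 fold change was -0.04. Calls in either direction were more frequent among better expressed genes. Where the mean reached 5 TPM, 18 of 102 pathway genes (17.6%) and 15.2% of all tested genes were called. These shares pool both directions, and whether level accounts for the share that fell was not tested. The called changes were small, between 0.23 and 0.75 in size on the log2 scale, with limma adjusted p between 0.00957 and 0.0495. The 6 and 13 calls became 0 and 0 without oeRNH1 replicate 1, without oeRNH1 replicate 2, without oeFlag replicate 1 and without oeFlag replicate 2, fits in which the lone library of a group is assumed to vary like the other group. They were also 0 and 0 with no filter on low values and with no variance trend, and quantile normalization left 3 higher.

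**Figure D4:**
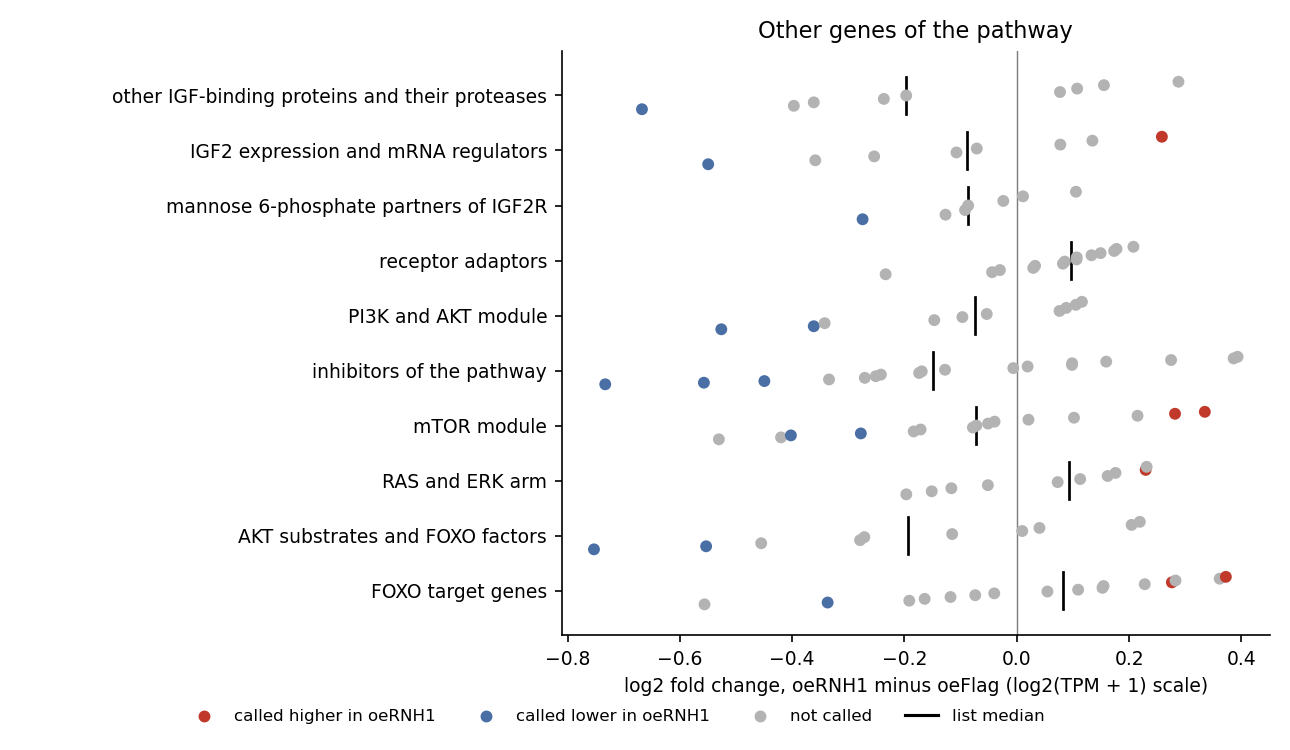
Log2 fold change (oeRNH1 minus oeFlag, on the log2(TPM + 1) scale) of each tested pathway gene, 1 row of points per list, with called genes in red (higher) or blue (lower), others in grey and list medians as black bars. List medians lie between -0.20 and 0.10, and SREBF1 and GRB14 are the lowest points.

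The list of further IGF-binding proteins and their proteases also held STC1, STC2, IGFALS, FURIN and PCSK6, which are neither. It had 0 higher, 1 lower and 8 not called of 9 tested, with 4 below the filter and a median of -0.20. IGFBP5 fell, at 2.17 and 1.99 TPM in the libraries labelled oeRNH1, against 3.93 and 3.85 TPM in those labelled oeFlag (log2 -0.67 ± 0.15, SE, limma adjusted p = 0.0424). IGFBP1 was listed at 0, and PAPPA, which cleaves IGFBP4, was at 0.05 to 0.24 TPM in the 4 libraries. Regulators of IGF2 expression had 1 higher, 1 lower and 6 not called of 8 (median -0.09). HMGA2, a chromatin protein that promotes IGF2 expression, fell to 33.9 ± 1.52 TPM in the libraries labelled oeRNH1, against 50.1 ± 1.91 TPM in those labelled oeFlag (SD, n = 2; log2 -0.55 ± 0.07, adjusted p = 0.0121). PLAGL1, an imprinted zinc finger factor, rose by 0.26 ± 0.06 (adjusted p = 0.0495). The IGF2 mRNA-binding proteins IGF2BP1, IGF2BP2 and IGF2BP3 had log2 fold changes of -0.07, -0.11 and -0.25 and were not called. Among partners of IGF2R in mannose 6-phosphate sorting, 0 were higher, 1 lower and 6 not called of 7 (median -0.09). GGA1, an adaptor of vesicles leaving the Golgi, fell by 0.27 ± 0.06 (adjusted p = 0.0462).

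The list of receptor adaptors, proteins that bind active receptors or IRS proteins, also held SOS1 and SOS2, which are not adaptors. It had 0 called of 14 tested and a median of 0.10. Its most abundant genes were RACK1, at log2 0.03 ± 0.04, and PTPN11, the phosphatase SHP2, at 0.08 ± 0.05 (SE, limma). PI3K and AKT genes had 0 higher, 2 lower and 8 not called of 10 (median -0.08). The AKT kinases carry the insulin signal to most of its metabolic targets. AKT2, the isoform tied to glucose uptake, had 44.0 and 44.3 TPM in the libraries labelled oeRNH1, against 64.3 and 63.8 TPM in those labelled oeFlag. Its replicates nearly coincided and it fell by 0.53 ± 0.05 (adjusted p = 0.00957). AKT1 had 59.2 and 54.7 TPM in the libraries labelled oeRNH1, against 72.2 and 74.7 TPM in those labelled oeFlag, and fell by 0.36 ± 0.06 (adjusted p = 0.0246).

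Inhibitors of the pathway had 0 higher, 3 lower and 15 not called of 18 tested (median -0.15). GRB14, an adaptor that binds and blocks the insulin receptor, had 4.78 and 3.58 TPM in the libraries labelled oeRNH1, against 8.41 and 6.77 TPM in those labelled oeFlag, and fell by 0.73 ± 0.17 (SE, limma adjusted p = 0.0455). PTPRF, the receptor phosphatase LAR, fell by 0.56 ± 0.09 (adjusted p = 0.0211), and INPPL1, the lipid phosphatase SHIP2, by 0.45 ± 0.09 (adjusted p = 0.0307). The mTOR genes had 2 higher, 2 lower and 11 not called of 15 (median -0.07). RICTOR, the defining subunit of mTOR complex 2, rose by 0.33 ± 0.07 and the kinase RPS6KB1, which phosphorylates IRS1 in negative feedback, by 0.28 ± 0.06 (adjusted p = 0.0409 for each). MLST8, a subunit of both mTOR complexes, fell by 0.40 ± 0.09 (adjusted p = 0.0392), and EIF4EBP1, a repressor of translation, by 0.28 ± 0.05 (adjusted p = 0.0291).

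RAS and ERK genes had 1 higher, 0 lower and 9 not called of 10 (median 0.09), and the gene that rose was NRAS, by 0.23 ± 0.05 (SE, limma adjusted p = 0.0403). The list of AKT substrates and FOXO factors also held SREBF1 and SLC2A4, which are neither. It had 0 higher, 2 lower and 8 not called of 10 tested (median -0.19). SREBF1, the lipogenic factor that insulin induces in liver, had 12.2 and 14.6 TPM in the libraries labelled oeRNH1, against 27.1 and 19.7 TPM in those labelled oeFlag. It fell by 0.75 ± 0.16 (adjusted p = 0.0391), though its oeFlag replicates were well apart. TBC1D4, the AKT substrate that holds back glucose transporter vesicles, had 23.4 and 22.1 TPM in the libraries labelled oeRNH1, against 35.0 and 32.7 TPM in those labelled oeFlag, and fell by 0.55 ± 0.07 (adjusted p = 0.0155). FOXO1, FOXO3 and FOXO4, transcription factors that AKT keeps out of the nucleus, and their relative FOXO6 were not called, with log2 fold changes from -0.27 to 0.20.

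Genes that FOXO factors are known to induce had 2 higher, 1 lower and 13 not called of 16 tested, with a median of 0.08. CITED2, a transcriptional co-regulator, rose by 0.37 ± 0.06 (SE, limma adjusted p = 0.0223), and CDKN1B, the cell cycle inhibitor p27, by 0.28 ± 0.07 (adjusted p = 0.0473). RBL2, a retinoblastoma-like protein, fell by 0.34 ± 0.06 (adjusted p = 0.0308). IRS2 and INSR, which FOXO factors also induce and which are among the 10 genes above, had log2 fold changes of 0.05 and 0.15. The liver genes PCK1 and G6PC1 and the muscle gene TRIM63 were below the filter.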

How the data were processed

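RNA-seq of 4 HEK293T libraries was used, 2 labelled oeRNH1 and 2 labelled oeFlag. The authors deposited 1 table of TPM, with a column per library and a row per gene, and per the submitters' processing notes STAR and hg38 were used. The sources used here do not give versions, the quantification program, the annotation release or how strand was handled.

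Genes whose mean reached 1 TPM were tested on log2(TPM + 1) with limma 3.58.1 in R 4.3.3, with a group term, an intensity trend in the variances and Benjamini-Hochberg adjustment over all 15651 tested genes. An adjusted p under 0.05 was a call. The added 1 makes fold changes of low genes smaller than their TPM ratio. The genes and lists were chosen with earlier results of these data known. Named were the 10 genes, RNASEH1, up to 5 called genes of each list with the largest change (for a list without a call, the 2 of highest TPM), the 5 genes nearest to IRS4 in pattern and the protein-coding genes within 1 Mb of it. Genes named outside this rule (cell markers, IRS4-AS1, IGF2-AS and other list members that were not called) were chosen after their values were seen. Gene positions came from GENCODE release 29 (GRCh38) and promoter windows from RefSeq (GRCh38.p14). Same-numbered libraries did not deviate together from their group means (r = 0.03 across genes), so no pairing was assumed. Figures were drawn with matplotlib 3.10.9.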

Additional observations from a re-analysis of the deposited data

How the results depend on the processing

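TPM hold no depth, each group has 2 libraries, and the spread of low genes such as IRS1 and IGF2 is wide, which limits what could be called. Over 12 alternatives, IRS4 had log2 fold changes from -1.11 to -1.02, and IGFBP3, in the 11 that tested it, from 0.92 to 3.07. IRS4 had an adjusted p under 0.05 in 7 of 12 and IGFBP3 in 5 of 11, neither of them with no filter (adjusted p 0.0695 for IRS4 and 0.0811 for IGFBP3, limma) or with no variance trend (0.0742 and 0.0747). INSR, IGF1R, IGF2R, IRS2, IGFBP2 and IGFBP4 kept their sign in every alternative that tested them, and IGF2 and IRS1 changed sign in 1 of 11 each. Apart from IRS2, the genes that kept their sign have groups that do not overlap. For them only quantile normalization and median-of-ratios scaling could have reversed the sign. Calls over all tested genes (1853) were 0 with no filter on low values (5655 genes at an unadjusted p under 0.05), 1 with no variance trend (4337) and between 0 and 15 with 1 library left out (3367 to 4035). Pathway genes called higher (6) were 0 with no filter, 0 with no variance trend, 3 with quantile normalization and 0 without any 1 library. Pathway genes called lower (13) were 0 with no filter, 0 with no variance trend and 0 without any 1 library. PLAGL1 lost its call under quantile normalization, median-of-ratios scaling and a pseudocount of 0.1, CDKN1B under the first 2 of these, and NRAS, GRB14 and SREBF1 under quantile normalization. With the replicate block, calls were 2442 over all genes and 8 higher and 17 lower among pathway genes. The numbers mark no known pairing. All 19 called pathway genes kept their direction in every alternative that tested them, but most alternatives could not have changed it. The groups of these genes do not overlap, so neither another pseudocount nor leaving out 1 library can reverse the sign. The filters, the variance trend and the replicate block leave the fold change as it is. Only quantile normalization and median-of-ratios scaling could have reversed it. The median of all tested genes moved by less than 0.02 on the log2 scale in each alternative.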
